A study of Mus musculus with 14 samples.

Results

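Wnt pathway genes were followed across 14 RNA sequencing libraries of cultured mouse small cell lung cancer cells. The set holds the table's rows for the Wnt ligands, the Frizzled receptors (Fzd), the secreted frizzled-related proteins (Sfrp), the Dickkopf proteins (Dkk) and the R-spondins (Rspo), chosen by symbol, plus Wif1, Lrp5, Lrp6, Ror1, Ror2, Axin2, Lef1, Tcf7, Tcf7l1, Tcf7l2, Lgr4, Lgr5, Nkd1, Notum, Rnf43 and Znrf3. It came to 57 of 32926 rows: 19 ligands, 10 Frizzled receptors, 6 co-receptors and R-spondin receptors, 4 R-spondins, 10 secreted antagonists, 4 feedback inhibitors and 4 TCF/LEF factors. The symbols alone chose them, not their levels. Of the 57, 3 had 0 counts in every library (Wnt2, Wnt8a and Dkk4), 5 had counts but no group mean of 1 CPM (counts scaled to a common library size, as defined with the processing), and 49 reached 1 CPM in at least 1 group.

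The study compares non-neuroendocrine (Non-NE) with neuroendocrine (NE) cells of this tumour, and asks what YAP, the coactivator held in check by the Hippo kinases, does in NE cells. Non-NE and NE have 3 libraries each, from cells of mice of mixed strain whose alleles include CGRPCreER/+, Rb f/f and P53 f/f, adult stage, with lung tumours taken after TM injection (2 months in the labels). Cre in this model is driven from the CGRP (calcitonin gene-related peptide) locus, active in neuroendocrine cells of the lung. The other 8 libraries are from cells labelled OE-YAP5SA, a form of YAP that the Hippo kinases cannot inactivate, with 2 libraries each at days 0, 3, 7 and 21. Their genotype adds Rosa26rtTA;Tet-onYAP5SA to these alleles, except that the label of day 0 replicate 1 lists no transgene. The genotype text of the 6 Non-NE and NE libraries and of that day 0 library runs from P53 to P59 f/f in successive samples, while the source text has P53 f/f throughout. All cells were grown in HITES medium. The labels do not say that libraries of a group came from separate cultures or lines, so p-values measure only the spread between these libraries, which may be technical. By the labels day 0 replicate 2 carried the transgene, as did every library of days 3, 7 and 21. No library without YAP5SA expression was made at days 3, 7 and 21, so that expression and culture time cannot be told apart.

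The libraries held 6730816 to 10659524 counts. NE replicate 2 exceeded day 0 replicate 1 in 0 of 32926 genes and totalled 85.7% of it, so both hold 1 read set. The Non-NE comparison and the day comparisons therefore share reads in their baselines. Yap1 had 131, 257 and 225 CPM in Non-NE, against 19.2, 8.26 and 11.5 CPM in NE. In the YAP5SA cells it had 7.91 and 7.15 CPM at day 0, 1241 and 1072 CPM at day 3, 737 and 796 CPM at day 7 and 208 and 219 CPM at day 21. Summed over 8 neuroendocrine markers, Non-NE libraries held 57.2 to 416.7 CPM and NE libraries 2701 to 4057 CPM, and the YAP5SA cells held 754 to 770.3 CPM at day 21, against 3998 to 4199 CPM at day 0. Of these 8, 7 were tested, and in Non-NE 6 were lower while Ncam1 was higher (log2 change 2.87, edgeR adjusted p = 0.0319). At day 21, 6 were lower and 1 higher than day 0. Of all genes tested 22.8% were lower and 20.0% higher in Non-NE, and 34.0% and 37.7% at day 21. Calca, which encodes CGRP, had 0 counts in every group but day 21. Fibroblast markers (10 genes) summed to 10680 to 22930 CPM in Non-NE libraries and 2.99 to 7.93 CPM in NE libraries. Of these 10, 8 reached 1 CPM in Non-NE libraries, while Thy1 and Tcf21 were at 0 there, and their part in the Non-NE results was not tested. At day 21 the same 10 genes summed to 46.7 to 51.7 CPM, against 6.32 to 7.25 CPM at day 0, with Postn and Tcf21 at 0. Alveolar and airway epithelial markers (8 genes) summed to 20.4 to 21.5 CPM at day 0, 957 to 1277 CPM at day 3, 4778 to 5246 CPM at day 7 and 2819 to 3219 CPM at day 21. At days 3 and 7 edgeR called 4 of the 8 higher than day 0 (Ager, Hopx, Aqp5 and Pdpn) and 2 lower (Sftpc and Foxj1). At day 21 it called 7 higher and 1 lower. Of all genes tested 26.2%, 37.2% and 37.7% were higher and 22.3%, 33.8% and 34.0% lower at days 3, 7 and 21. At day 0 only 4 of the 8 reached 1 CPM, and the part of these markers in the day results was not tested.

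Wnt proteins are lipid-modified ligands that bind Frizzled receptors. With the co-receptors Lrp5 or Lrp6 they keep the destruction complex from degrading beta-catenin, which then activates genes together with TCF/LEF factors, whereas signalling through Ror1 or Ror2 and the planar polarity proteins does not need beta-catenin. R-spondins, acting through Lgr receptors, remove Rnf43 and Znrf3, ligases that clear Frizzled from the cell surface. Secreted antagonists such as Wif1 and Sfrp proteins bind the ligands. In the lung Wnt signals act in branching, in alveolar stem cells and in repair.

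The promoters of 4 genes are shown because these genes took opposite courses over the YAP5SA days: Wnt7a and Wnt6 were under 1 CPM at day 0 and rose, while Wif1 and Wnt8b fell. Sequences are from RefSeq, build GRCm38.p6, 250 bases before to 50 bases after the start of transcription, 5′ to 3′ on the gene's strand, with CG dinucleotides in capitals. Wnt7a lies at chr6:91411304-91411603, minus strand, Wnt6 at chr1:74771642-74771941, plus strand, Wif1 at chr10:121033754-121034053, plus strand and Wnt8b at chr19:44493222-44493521, plus strand.
Wnt7a: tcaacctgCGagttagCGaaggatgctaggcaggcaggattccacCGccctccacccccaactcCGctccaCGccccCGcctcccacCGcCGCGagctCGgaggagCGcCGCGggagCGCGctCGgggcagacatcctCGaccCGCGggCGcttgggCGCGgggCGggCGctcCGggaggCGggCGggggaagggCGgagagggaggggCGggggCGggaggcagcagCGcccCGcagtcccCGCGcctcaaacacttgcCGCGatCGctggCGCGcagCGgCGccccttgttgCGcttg
Wnt6: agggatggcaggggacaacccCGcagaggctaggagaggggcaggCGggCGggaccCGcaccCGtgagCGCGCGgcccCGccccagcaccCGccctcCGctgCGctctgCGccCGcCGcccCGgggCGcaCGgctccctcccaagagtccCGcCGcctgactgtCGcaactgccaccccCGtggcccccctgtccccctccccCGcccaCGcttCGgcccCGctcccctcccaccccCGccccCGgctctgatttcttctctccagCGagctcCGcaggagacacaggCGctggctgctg
Wif1: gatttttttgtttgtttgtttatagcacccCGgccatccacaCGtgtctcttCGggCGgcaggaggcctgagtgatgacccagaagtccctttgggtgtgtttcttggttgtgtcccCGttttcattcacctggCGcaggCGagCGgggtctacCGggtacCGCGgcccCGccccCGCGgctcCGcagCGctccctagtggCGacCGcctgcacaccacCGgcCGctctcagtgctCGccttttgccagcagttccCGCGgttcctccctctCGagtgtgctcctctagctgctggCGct
Wnt8b: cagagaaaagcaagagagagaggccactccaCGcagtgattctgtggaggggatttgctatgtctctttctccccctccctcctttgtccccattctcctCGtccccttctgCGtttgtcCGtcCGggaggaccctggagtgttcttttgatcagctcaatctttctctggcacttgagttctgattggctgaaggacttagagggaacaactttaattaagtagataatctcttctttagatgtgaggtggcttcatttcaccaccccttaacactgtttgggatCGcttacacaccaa
They hold 42 CG dinucleotides (Wnt7a), 31 (Wnt6), 25 (Wif1) and 6 (Wnt8b). The median was 24 over the 47 promoters found for 38 of the 57 genes, and 7 over all 32851 mouse promoters of 300 bases in that table. The letters GGAATG, the motif of the TEAD factors through which YAP acts, were searched on both strands and occurred in 2 of the 47 promoters (those of Lgr4 and Wnt5b), against 14.7% of all promoters. ATCAAAG, the TCF/LEF motif, occurred in 2 of the 47 (Wnt11 and Wnt5b), against 3.73% of all. The median GC content was 66.7% over the 47 promoters and 52.7% over all, and its part in the motif shares was not tested. No promoter was found for Wnt7b, Wnt5a and Wnt10a. The 4 promoters printed hold neither motif. These searches say only whether the letters are in the windows.

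**Figure D1:**
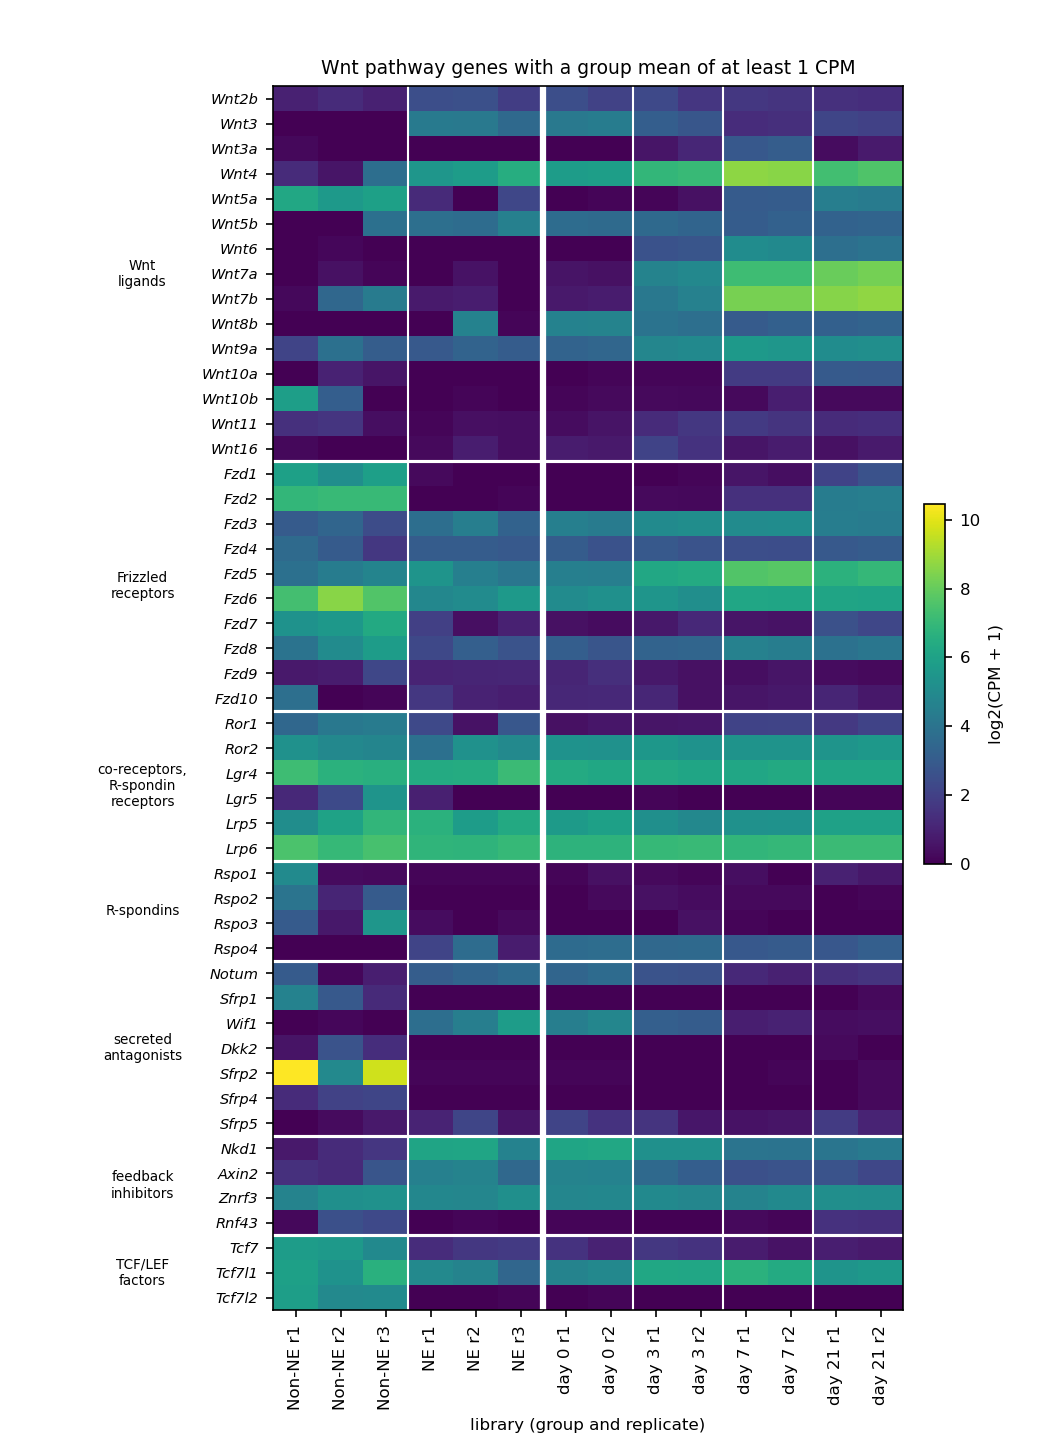
Each row is 1 of the 49 Wnt pathway genes with a group mean of at least 1 CPM, each column 1 library, and colour is log2(CPM + 1). Sfrp2, Fzd2 and Tcf7l2 are bright in the 3 Non-NE columns and dark in the NE columns, and Wnt7a and Wnt7b brighten over the days.

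Ligands changed in number and in kind over the YAP5SA days. Summed per kb of exon, the 19 ligand genes held 35.2 ± 0.992 CPM per kb at day 0, 66.0 ± 3.04 at day 3, 245 ± 4.64 at day 7 and 242 ± 20.2 at day 21 (SD, n = 2 each). The sum was 1.87 times that of day 0 at day 3, 6.96 times at day 7 and 6.87 times at day 21. The epithelial marker sum was also above day 0 on each later day, and its part in the ligand sum was not tested. Over the same days 6, 11, 13 and 12 ligands reached 1 CPM. Wnt4, Wnt7a and Wnt7b together held 38.5% of the sum at day 0, 64.7% at day 3, 83.8% at day 7 and 87.6% at day 21. Wnt4 led per kb at days 0, 3 and 7 and Wnt7a at day 21, at 90.5 CPM per kb. Because exon lengths come from an annotation that may not be the one counted, these levels per length are approximate.

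**Figure D2:**
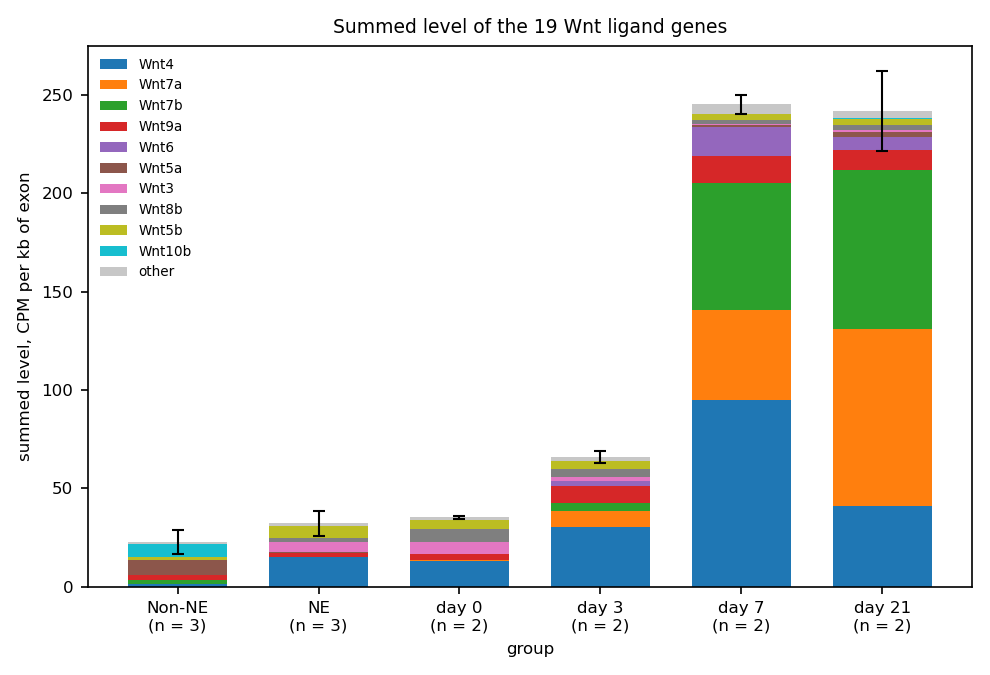
Bars give the mean summed level of the 19 Wnt ligand genes in CPM per kb of exon for each group, split by gene, and error bars are the SD of the sum over libraries (n = 3 for Non-NE and NE, n = 2 for each day). The sum is 245 CPM per kb at day 7 and 242 at day 21, against 35.2 at day 0, and Wnt4, Wnt7a and Wnt7b make up most of it.

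Wnt7a and Wnt7b, close relatives of which Wnt7b is needed for growth of the embryonic lung, had the highest CPM of the ligands at day 21. Wnt7a (chromosome 6, 91363981 to 91411363, minus strand, mm10) had 0.471 and 0.372 CPM at day 0, 24.9 and 28.3 CPM at day 3, 146 and 146 CPM at day 7 and 270.0 and 304 CPM at day 21. The libraries of each day stood apart from those of every other day. It was 60.9-fold higher than day 0 at day 3 and 675-fold higher at day 21 (log2 change 9.40, SE 0.17, edgeR adjusted p = 1.51e-24). In Non-NE libraries it had 0, 0.366 and 0.106 CPM and in NE libraries 0, 0.441 and 0 CPM, all under 1 CPM. Wnt7b (chromosome 15, 85535437 to 85582473, minus strand) had 0.659 and 0.743 CPM at day 0, 17 and 23.4 CPM at day 3, 316 and 319 CPM at day 7 and 375 and 416 CPM at day 21. The days again did not overlap. It was 28.1-fold higher at day 3, 448-fold at day 7 and 564-fold at day 21 (log2 change 9.14, SE 0.17, edgeR adjusted p = 3.51e-24). Unlike Wnt7a it was present in part of the Non-NE libraries, at 0.161, 10.1 and 19.6 CPM, against 0.674, 0.771 and 0 CPM in NE libraries. The groups overlapped there, and Wnt7b did not pass the count filter of that comparison. An antisense gene on the opposite strand covers 6.61% of the Wnt7b exons, and the strand setting of the counting is not given in the sources used here.

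Wnt4, Wnt9a, Wnt6 and Wnt3a were highest at day 7. Wnt4 (chromosome 4, 137277489 to 137299726, plus strand), a ligand of kidney, gonad and lung development, had 53.7 and 57.6 CPM at day 0, 121 and 132 CPM at day 3, 410.2 and 384 CPM at day 7 and 154 and 188 CPM at day 21. It was 7.2-fold higher than day 0 at day 7 (log2 change 2.85, SE 0.09, edgeR adjusted p = 2.51e-19) and 2.3-fold lower at day 21 than at day 7 (edgeR adjusted p = 1.04e-11). At day 21 the Wnt4 libraries still lay above both of day 0 (log2 change 1.65, SE 0.09, edgeR adjusted p = 2.09e-14). In a fit of 13 libraries whose spread also comes from the Non-NE and NE groups, the calls of day 21 against day 0 (log2 change 1.62, adjusted p = 0.152) and against day 7 (log2 change -1.21, adjusted p = 0.453) were both lost. Wnt9a, expressed in developing joints and blood vessels, had 9.04 and 9.94 CPM at day 0, 26.9 and 30.0 CPM at day 3, 47.6 and 43.9 CPM at day 7 and 33.4 and 35 CPM at day 21. All later libraries exceeded those of day 0, 4.86-fold at day 7 and 3.66-fold at day 21 (log2 change 1.87, SE 0.12, edgeR adjusted p = 6.66e-13). In the other set Wnt9a had 3.37, 13.7 and 7.51 CPM in the Non-NE libraries, against 6.65, 9.03 and 7.2 CPM in the NE libraries, which overlapped (edgeR adjusted p = 0.927). Wnt6 (chromosome 1, 74771892 to 74785322, plus strand) had 0 and 0 CPM at day 0, 5.18 and 5.74 CPM at day 3, 32.7 and 30.6 CPM at day 7 and 13 and 14.8 CPM at day 21. There was a single count among the 6 Non-NE and NE libraries. It was at least 39-fold higher than day 0 at day 3, at least 226-fold at day 7 and at least 99-fold at day 21, since day 0 had 0 counts (edgeR adjusted p = 7.51e-15 at day 21). Wnt3a, the ligand most used to activate beta-catenin in culture, had 0 and 0 CPM at day 0, 0.489 and 1.2 CPM at day 3, 6.33 and 7.45 CPM at day 7 and 0.286 and 0.679 CPM at day 21. Its day 7 libraries stood far above the rest, at least 49.1-fold higher than day 0, and day 21 was 13.9-fold lower than day 7 (edgeR adjusted p = 1.40e-08).

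Wnt5a and Wnt10a were late. Wnt5a (chromosome 14, 28504750 to 28527448, plus strand), the main ligand of signalling without beta-catenin, had 0 and 0.093 CPM at day 0, 0.098 and 0.371 CPM at day 3, 7.04 and 7.35 CPM at day 7 and 21.2 and 19.3 CPM at day 21. At day 21 both libraries exceeded those of day 7, 2.84-fold (edgeR adjusted p = 4.31e-08, but 0.0785 and no longer called in the fit of 13 libraries), and the level was 433-fold (95% counting interval 77.3 to 17140.0) higher than at day 0. It was the leading ligand per kb of the Non-NE cells and had 75.5, 49.9 and 60.5 CPM in the Non-NE libraries, against 1.35, 0 and 3.7 CPM in the NE libraries, with no overlap (35.6-fold higher, log2 change 5.16, SE 1.02, edgeR adjusted p = 0.00715). Wnt10a had 0 and 0.093 CPM at day 0, 0.098 and 0.093 CPM at day 3, 2.55 and 2.55 CPM at day 7 and 6.77 and 6.5 CPM at day 21. It was 142-fold (95% counting interval 25.1 to 5644) higher at day 21 than at day 0. It lies 6.19 kb downstream of Wnt6 on the same strand of chromosome 1 (chromosome 1, 74791516 to 74804179, plus strand), but its libraries were highest at day 21, those of Wnt6 at day 7. Wnt3a and Wnt9a are likewise neighbours, 16.2 kb apart and divergent on chromosome 11, and both had their highest level at day 7.

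At day 21 the ligands Wnt3, Wnt8b and Wnt2b were below day 0. Wnt3, an activator of beta-catenin, had 17.9 and 19.8 CPM at day 0, 7.83 and 5.93 CPM at day 3, 1.53 and 1.63 CPM at day 7 and 3.53 and 3.1 CPM at day 21. Its day 7 and day 21 libraries lay below those of day 0 and day 3, 11.7-fold and 5.56-fold lower than day 0 (log2 change -2.48, SE 0.19, edgeR adjusted p = 8.77e-12). In the other set it had 0 counts in every Non-NE library, against 18.5, 17.7 and 10.8 CPM in the NE libraries, at least 125-fold lower (edgeR adjusted p = 0.000873). Wnt3 entered that test through NE, so its direction was fixed by the filter. Wnt8b (chromosome 19, 44493472 to 44514273, plus strand), known mainly from the developing forebrain, had 24.2 and 24.8 CPM at day 0, 15 and 13.1 CPM at day 3, 7.04 and 8.27 CPM at day 7 and 8.2 and 8.92 CPM at day 21. It was 2.81-fold lower at day 21 than at day 0 (log2 change -1.49, SE 0.14, edgeR adjusted p = 7.50e-10). Outside the YAP5SA libraries it passed 1 CPM only in NE replicate 2, at 23.9 CPM, the library that shares its reads with day 0 replicate 1. The Non-NE libraries had 0 and NE replicates 1 and 3 had 0 and 0.106 CPM. Wnt2b averaged 1.63 ± 0.117 CPM at day 21 and 3.93 ± 1.1 CPM at day 0 (SD, n = 2 each, log2 change -1.23, edgeR adjusted p = 0.00163).

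In Non-NE libraries the ligand sum was 22.7 ± 6.005 CPM per kb, against 32.2 ± 6.27 in NE libraries (SD, n = 3 each), with overlapping ranges of 16.6 to 28.6 and 25.1 to 36.9. Wnt5a and Wnt10b led in Non-NE and Wnt4 in NE. Wnt4 had 1.45, 0.488 and 12.9 CPM in the Non-NE libraries, against 44.5, 53.9 and 89.8 CPM in the NE libraries, without overlap and 12.6-fold lower in Non-NE (log2 change -3.65, SE 1.07, edgeR adjusted p = 0.0319). This call was lost without any 1 of the 3 NE libraries or without Non-NE replicate 1, with adjusted p of 0.0583, 0.062, 0.0791 and 0.076, and with no count filter (0.0655). Wnt10b, a ligand of fat and bone cell precursors, had 56.5, 7.69 and 0 CPM in Non-NE libraries, against 0, 0.11 and 0 CPM in NE libraries. It was high in Non-NE replicate 1 and absent from replicate 3, and it did not pass the count filter. Of the remaining ligands, Wnt2b averaged 1.13 ± 0.293 CPM in Non-NE and 4.11 ± 1.18 CPM in NE (SD, n = 3 each; log2 change -1.88, edgeR adjusted p = 0.0159). Wnt5b had 0, 0 and 13.3 CPM in the Non-NE libraries, against 13.1, 12 and 22.6 CPM in the NE libraries, and its change did not pass the test (edgeR adjusted p = 0.393). Over the days Wnt11 was 3.96-fold higher at day 21 than at day 0 (edgeR adjusted p = 0.00135), and Wnt16 3.58-fold higher at day 3 (adjusted p = 0.000705), both at levels under 4 CPM. Wnt1 and Wnt9b never reached a group mean of 1 CPM.

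Across the YAP5SA days, 14 of the 19 ligands had enough counts to be tested; at day 21 edgeR called 9 higher and 3 lower than day 0. Over all 57 genes 39 were tested, with 15 higher and 9 lower at day 3, 18 and 13 at day 7, and 21 and 9 at day 21. Among all genes tested 48.6%, 71.0% and 71.7% were called at days 3, 7 and 21: 26.2% were higher and 22.3% lower at day 3, 37.2% and 33.8% at day 7, and 37.7% and 34.0% at day 21. Several of the 39, such as Wnt6, were near 0 at day 0 and entered the test because they were high later, so the counts describe these genes and say no more. The median log2 change of the 39 was 0.17, 0.17 and 0.35 at days 3, 7 and 21, against 0.01, 0.03 and 0.02 over all genes tested. Over the whole course 23 of the 39 were above day 0 on at least 1 day and 13 below, where 47.9% and 43.1% of all genes tested were. None of the 39 went both ways, and 4.47% of all genes did, so these counts say little about the 39. The 23 split by their day of highest mean into 1 at day 3 (Wnt16), 11 at day 7 and 11 at day 21. Between days 3 and 7, 16 genes were called higher and 9 lower (29.5% and 26.2% of all genes, 55.6% in all), and between days 7 and 21, 14 and 9 (26.1% and 24.2%, 50.3% in all). Of the 11 that were highest at day 7, 8 were called lower at day 21 than at day 7, and of the 11 highest at day 21, 10 were called higher than at day 7. The coefficient of biological variation between libraries of a day was 0.0548, so small changes pass. In the fit of 13 libraries, with 0.266, 12 genes were called higher and 5 lower at day 21, and 5 higher and 1 lower at day 3. Day 21 against day 7 gave 4 higher and 1 lower there. Beside Wnt4 and Wnt5a, the calls between days 7 and 21 of Wnt3, Wnt6, Wnt7b, Wnt9a, Wnt10a, Wif1, Fzd5, Fzd8 and Tcf7l1 were lost in it (adjusted p 0.118 to 0.884). So were the day 3 calls against day 0 of Wnt4, Wnt8b, Wnt9a, Wif1, Fzd2, Fzd7, Fzd8, Tcf7l1, Axin2, Nkd1 and Notum (0.0518 to 0.668), and the day 7 calls of Fzd6, Tcf7 and Notum (0.0502 to 0.0621).

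**Figure D3:**
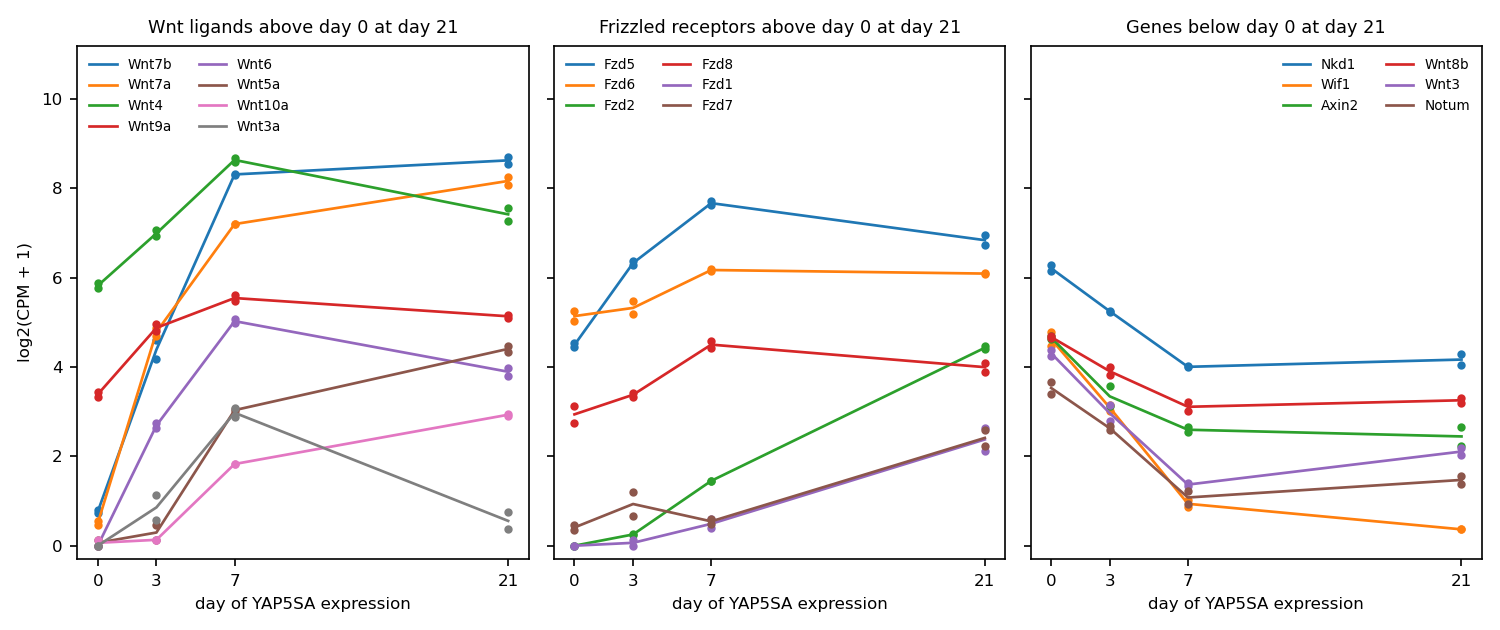
Points are log2(CPM + 1) in each library against the day of YAP5SA expression, and lines join the day means (n = 2 libraries per day). The left panel shows ligands and the middle panel Frizzled receptors above day 0 at day 21, and the right panel genes below it; Wnt4, Wnt6, Wnt9a, Wnt3a, Fzd5 and Fzd8 are highest at day 7, whereas Fzd1, Fzd2, Wnt5a and Wnt10a are highest at day 21.

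Frizzled receptor RNA was more abundant in Non-NE than in NE cells. The family's sum was 122 ± 22.5 CPM per kb in Non-NE libraries, against 15.6 ± 0.865 in NE libraries (SD, n = 3 each), 7.87 times as high and without overlap. Because these are bulk RNA levels, fewer cells of a type and less RNA per cell cannot be told apart. Of 9 tested receptors 5 were called higher in Non-NE and 0 lower. Over all 57 genes 32 were tested, 13 higher and 6 lower, where 42.8% of all genes tested were called, 20.0% higher and 22.8% lower. The median log2 change of the 32 was 0.28, against -0.02 over all genes. Genes near 0 in NE, such as Fzd2, entered the test because they were high in Non-NE, so these counts are a description. The fibroblast marker sum was likewise higher in Non-NE (10680 to 22930 CPM) than in NE (2.99 to 7.93 CPM), and its part in the receptor levels was not tested.

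Fzd2 (chromosome 11, 102604396 to 102608058, plus strand), a receptor of Wnt5a in mesenchymal cells, had 119, 131 and 130.0 CPM in the Non-NE libraries, against 0, 0 and 0.106 CPM in the NE libraries. Its 3 Non-NE libraries differed by 1.1-fold, the narrowest spread of the Non-NE members listed with 1 CPM or more, and NE held 1 count in all, so that Non-NE was 3691-fold (95% counting interval 662 to 145800.0) higher (edgeR adjusted p = 2.69e-05). Over the days Fzd2 had 0 and 0 CPM at day 0, 0.196 and 0.185 CPM at day 3, 1.74 and 1.74 CPM at day 7 and 20.1 and 21 CPM at day 21. The day 21 libraries stood alone, 11.9-fold above day 7 (log2 change 3.57, SE 0.21, edgeR adjusted p = 7.44e-13). Against day 0, which had 0 counts, day 21 was at least 147-fold higher. Its call at day 3 rested on 4 counts and was lost without either library of day 0 or day 3 (adjusted p 0.0775 to 0.148). Fzd1 had 60.1, 34.5 and 58.4 CPM in the Non-NE libraries, against 0.193, 0 and 0 CPM in the NE libraries, 732-fold (95% counting interval 202 to 6051) higher (edgeR adjusted p = 0.000185). Over the days it had 0 and 0 CPM at day 0, 0 and 0.093 CPM at day 3, 0.511 and 0.306 CPM at day 7 and 3.34 and 5.24 CPM at day 21. Day 21 lay above all other libraries and 10.3-fold above day 7 (edgeR adjusted p = 1.02e-06). Fzd7, a receptor common in stem cells, had 39.2, 46.5 and 80.6 CPM in the Non-NE libraries, against 2.99, 0.33 and 0.953 CPM in the NE libraries, 37.4-fold higher without overlap (log2 change 5.23, SE 0.77, edgeR adjusted p = 0.00213). It had 0.377 and 0.279 CPM at day 0, 0.587 and 1.3 CPM at day 3, 0.511 and 0.408 CPM at day 7 and 5.05 and 3.68 CPM at day 21. Only the day 21 libraries stood clear of the rest (13.2-fold over day 0, log2 change 3.72, SE 0.44, edgeR adjusted p = 3.59e-08). Its call at day 3 (log2 change 1.49) was lost without either library of day 0 or without day 3 replicate 2 (adjusted p 0.108, 0.199 and 0.477).

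Fzd6 was the most abundant receptor per kb in both groups, at 51.2 CPM per kb in Non-NE and 7.35 in NE. It had 159.5, 385 and 195 CPM in the Non-NE libraries, against 27.3, 31.6 and 47.4 CPM in the NE libraries, with no overlap (6.79-fold higher, log2 change 2.76, SE 0.40, edgeR adjusted p = 0.00202). Over the days it had 31.6 and 37.2 CPM at day 0, 43.3 and 35.2 CPM at day 3, 72 and 70.3 CPM at day 7 and 67.6 and 66.9 CPM at day 21. The libraries of days 7 and 21 lay above those of days 0 and 3 (1.99-fold at day 21, log2 change 0.99, SE 0.10, edgeR adjusted p = 4.19e-09). In the fit of 13 libraries that call was lost (adjusted p = 0.0764). Fzd8 had 14.8, 31.6 and 53.7 CPM in the Non-NE libraries, against 3.76, 7.93 and 5.4 CPM in the NE libraries, 5.75-fold higher without overlap (log2 change 2.52, SE 0.54, edgeR adjusted p = 0.00951). It had 7.72 and 5.76 CPM at day 0, 9.1 and 9.73 CPM at day 3, 22.9 and 20.5 CPM at day 7 and 13.9 and 16.1 CPM at day 21. It was highest at day 7, and the changes against day 0 were 3.25-fold at day 7 and 2.27-fold at day 21 (log2 change 1.18, SE 0.17, edgeR adjusted p = 6.95e-07). In the fit of 13 libraries the day 21 change had an adjusted p of 0.0851. The day 3 call of Fzd8 (log2 change 0.47) was lost without day 0 replicate 2 or either day 3 library, with adjusted p of 0.343, 0.0541 and 0.142, and its fall after day 7 without day 7 replicate 1 (0.0605).

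Fzd5 (chromosome 1, 64730558 to 64737751, minus strand) had 22.1 and 21 CPM at day 0, 76.5 and 82.5 CPM at day 3, 195 and 210.2 CPM at day 7 and 105 and 123 CPM at day 21. Each day stood apart from the others, with day 7 highest (9.48-fold over day 0, log2 change 3.25, SE 0.10, edgeR adjusted p = 3.97e-20). At day 21 it was 5.38-fold above day 0 (edgeR adjusted p = 2.20e-17), and it was the receptor highest per kb at days 3, 7 and 21, with 56.4% of the family's sum at day 7. In the other set Fzd5 had 13.7, 19.8 and 25.5 CPM in the Non-NE libraries, against 41.9, 21.8 and 16.4 CPM in the NE libraries. These groups overlapped and the change did not pass the test (log2 change -0.47, SE 0.42, edgeR adjusted p = 0.404). A gene on the opposite strand covers 17.8% of the Fzd5 exons. The Frizzled sum per kb was 15.0 ± 0.308 CPM at day 0, 25.4 ± 0.622 at day 3, 52.0 ± 1.08 at day 7 and 43.5 ± 2.17 at day 21 (SD, n = 2 each). Among the others, Fzd3 averaged 32.7 ± 0.852 CPM at day 7 and 20.4 ± 1.72 CPM at day 0 (SD, n = 2 each; log2 change 0.69, edgeR adjusted p = 4.92e-06) and was back at 19.9 ± 0.789 CPM at day 21. Fzd9, at levels under 2 CPM, had a log2 change of -2.46 at day 21 (edgeR adjusted p = 0.000641), and neither Fzd4 nor Fzd10 had a call against day 0. Fzd4 had none against NE either, where Fzd10 was not tested.

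**Figure D4:**
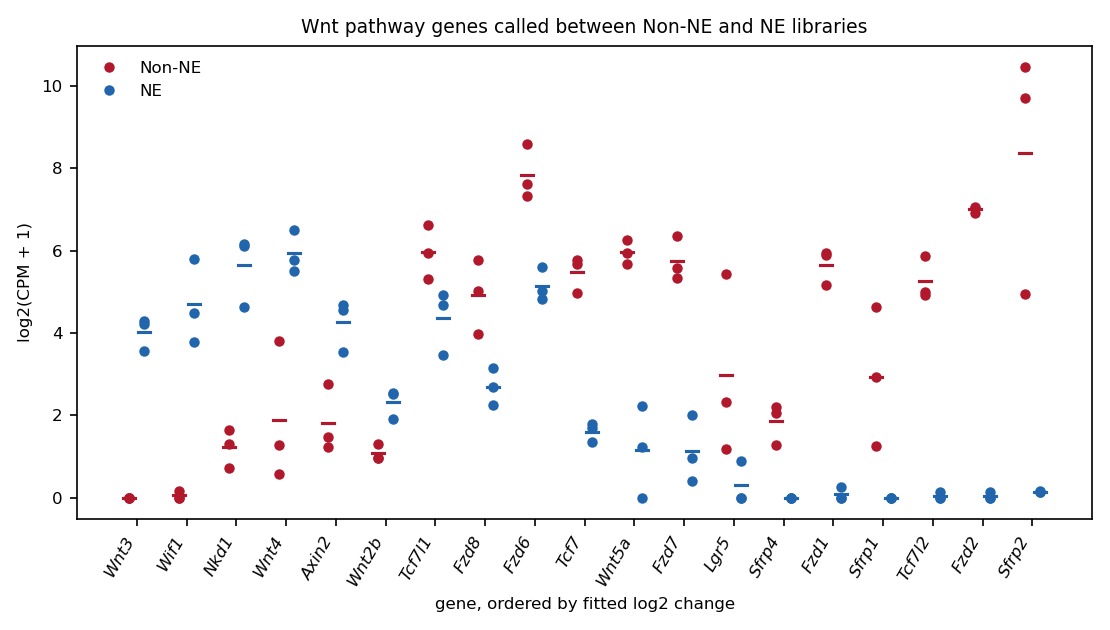
Points are log2(CPM + 1) in each Non-NE (left, red) and NE (right, blue) library for the 19 Wnt pathway genes called between these groups, ordered by fitted log2 change, with bars at the mean of 3 libraries. Wnt3 and Wif1 lie at the low end, with Non-NE at or near 0, and Sfrp2, Fzd2 and Tcf7l2 at the high end, with NE at or near 0; the 3 Non-NE points of Sfrp2 are far apart and those of Fzd2 almost coincide.

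The co-receptor and R-spondin receptor sum was 50.2 ± 5.95 CPM per kb in Non-NE and 41.1 ± 7.30 in NE (SD, n = 3 each), and between 35.5 and 39.4 on all days. Lrp6, which carries the beta-catenin signal, had 179.7, 129 and 169.8 CPM in the Non-NE libraries, against 113, 109.8 and 129 CPM in the NE libraries (edgeR adjusted p = 0.127), and Lrp5 had 34, 63.6 and 116 CPM in the Non-NE libraries, against 101, 54.3 and 81.3 CPM in the NE libraries, with overlap (adjusted p = 0.785). Lrp5 was 1.77-fold lower at day 3 than at day 0 (log2 change -0.82, edgeR adjusted p = 5.72e-07), and at day 21 the difference did not pass the test (adjusted p = 0.109). Lgr4, a receptor of R-spondins, was the highest of the family per kb in every group and had no call in any comparison. Ror1, a receptor of Wnt5a, had 10.3, 17.3 and 19.5 CPM in the Non-NE libraries, against 3.95, 0.441 and 6.24 CPM in the NE libraries. The groups did not overlap, yet the change did not pass the test (log2 change 2.11, edgeR adjusted p = 0.077). Over the days Ror1 had 0.377 and 0.557 CPM at day 0, 0.489 and 0.556 CPM at day 3, 3.27 and 3.37 CPM at day 7 and 2.29 and 3.3 CPM at day 21. Days 7 and 21 were above days 0 and 3 (5.95-fold at day 21, log2 change 2.57, SE 0.42, edgeR adjusted p = 6.01e-06). Ror2 averaged 30.7 ± 6.49 CPM in Non-NE and 27 ± 12.5 CPM in NE (SD, n = 3 each), which overlapped. Lgr5, another R-spondin receptor and a stem cell marker of the gut, had 1.28, 4.03 and 41.8 CPM in the Non-NE libraries, against 0.867, 0 and 0 CPM in the NE libraries, with most of its counts in Non-NE replicate 3. Its call (log2 change 5.63, edgeR adjusted p = 0.0425) was lost without any 1 NE library (0.0565, 0.109 and 0.107), without Non-NE replicate 3 (0.149) and with no count filter (0.0748).

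R-spondins differed from one Non-NE library to the next. Rspo1 had 31, 0.244 and 0.212 CPM in the Non-NE libraries, against 0.096, 0.11 and 0.106 CPM in the NE libraries. Rspo2 had 15.3, 1.1 and 6.98 CPM in the Non-NE libraries, against 0, 0 and 0 CPM in the NE libraries. Rspo3 had 6.91, 0.61 and 44.3 CPM in the Non-NE libraries, against 0.289, 0 and 0.212 CPM in the NE libraries. Each was highest in a single Non-NE library, replicate 1 for Rspo1 and Rspo2 and replicate 3 for Rspo3, and the highest Non-NE library exceeded the lowest 146-fold for Rspo1, 13.9-fold for Rspo2 and 72.7-fold for Rspo3. None of the 4 R-spondins passed the count filter of this comparison. Rspo4 was the R-spondin of NE cells, at 0 counts in all Non-NE libraries, against 3.37, 12.1 and 0.741 CPM in NE libraries. That is at least 41.8-fold lower in Non-NE, but 110 of the NE counts are from replicate 2, which shares reads with day 0. Without it the remaining 42 counts give at least 16.9-fold. Over the days Rspo4 had 11.7 and 12.4 CPM at day 0, 10.7 and 11 CPM at day 3, 6.33 and 6.94 CPM at day 7 and 6.2 and 8.05 CPM at day 21 (1.66-fold lower at day 21, log2 change -0.73, SE 0.17, edgeR adjusted p = 0.000375).

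Among secreted antagonists, Sfrp1, Sfrp2 and Sfrp4 were higher in Non-NE than in NE libraries, and Wif1 was lower. These 3 Sfrp genes, at or near 0 in NE, entered the test through Non-NE, so their direction was fixed by the filter. Sfrp2 (chromosome 3, 83766321 to 83774316, plus strand), which binds Wnt ligands and is typical of fibroblasts, had 1404, 29.7 and 831 CPM in the Non-NE libraries, against 0.096, 0.11 and 0.106 CPM in the NE libraries. Every Non-NE library exceeded every NE library, but Non-NE replicate 2 was 47.3-fold below replicate 1. With 3 NE counts in all, Non-NE was 6799-fold (95% counting interval 2326 to 32970.0) higher (edgeR adjusted p = 0.00213), and Sfrp2 made up 98.5% of the Non-NE antagonist sum of 356 ± 323 CPM per kb (range 17.7 to 661.1), against 17.2 ± 9.61 in NE (SD, n = 3 each). Of the 10 fibroblast markers, 7 were tested and all 7 were higher in Non-NE, while Lum, Thy1 and Tcf21 were not tested. Of all genes tested 20.0% were higher. Only 3 of the 10 markers reached 1 CPM in NE. Those near 0 there entered the test through Non-NE, so their direction was fixed by the filter. The part of the fibroblast markers in the Sfrp2 level was not tested. Sfrp1 had 23.6, 6.59 and 1.38 CPM in the Non-NE libraries, against 0, 0 and 0 CPM in the NE libraries, at least 86.4-fold higher (edgeR adjusted p = 0.0162), and Sfrp4 averaged 2.74 ± 1.14 CPM in Non-NE with 0 counts in NE (edgeR adjusted p = 0.00372). None of these 3 reached 0.2 CPM in any YAP5SA library. Dkk2 was found in Non-NE libraries at 0.482, 5.37 and 1.59 CPM and at 0 in NE, while Sfrp5 averaged 0.293 ± 0.32 CPM in Non-NE and 1.7 ± 1.6 CPM in NE (SD, n = 3 each). Dkk1 and Dkk3 stayed under 1 CPM in every group mean.

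Wif1 (chromosome 10, 121033960 to 121100650, plus strand), an antagonist that binds Wnt proteins directly and is often silenced in lung cancer, had 0, 0.122 and 0 CPM in the Non-NE libraries, against 12.8, 21.5 and 54.5 CPM in the NE libraries. The Non-NE libraries held 1 count in all, 696-fold (95% counting interval 125 to 27530.0) lower (edgeR adjusted p = 0.000776). Wif1 entered that test through NE, so its direction was fixed by the filter. Over the days it had 21.1 and 26.6 CPM at day 0, 7.92 and 7.13 CPM at day 3, 0.817 and 1.02 CPM at day 7 and 0.286 and 0.291 CPM at day 21. Each day lay below the one before. At day 3 it was 3.2-fold lower than at day 0, at day 7 25.4-fold lower (log2 change -4.67, SE 0.24, edgeR adjusted p = 3.87e-15). Its further fall between days 7 and 21 (log2 change -1.62, edgeR adjusted p = 0.0305) was lost without any 1 of those 4 libraries (adjusted p 0.0567 to 0.138). Notum, an enzyme that removes the lipid from Wnt ligands, had 9.61 and 11.6 CPM at day 0, 5.38 and 5.003 CPM at day 3, 1.33 and 0.918 CPM at day 7 and 1.62 and 1.94 CPM at day 21. Days 7 and 21 lay below days 0 and 3, 5.83-fold lower at day 21 than at day 0 (log2 change -2.54, SE 0.23, edgeR adjusted p = 4.24e-10). In the fit of 13 libraries the adjusted p was 0.094. In the other set Notum had 6.91, 0.122 and 0.846 CPM in the Non-NE libraries, against 7.42, 9.47 and 11.4 CPM in the NE libraries, where the lower Non-NE level did not pass the test (edgeR adjusted p = 0.212), and antisense genes cover part of its exons, the longer of them 29.4%. The antagonist sum per kb was 15.7 ± 1.56 CPM at day 0, 6.05 ± 0.887 at day 3, 1.31 ± 0.118 at day 7 and 2.08 ± 0.338 at day 21 (SD, n = 2 each), while the ligand sum was 6.96 times that of day 0 at day 7. Sfrp5 made up 44.9% of the day 21 sum. It was called lower than day 0 at days 3 and 7 but not at day 21. From 0.408 and 0.51 CPM at day 7 it rose to 2.48 and 1.07 CPM at day 21 (3.84-fold, edgeR adjusted p = 0.0127).

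Axin2 and Nkd1, feedback inhibitors that beta-catenin itself induces in many tissues, were lower in Non-NE than in NE and lower on later days than at day 0. Axin2 (chromosome 11, 108920349 to 108950783, plus strand), a scaffold of the destruction complex and the most used readout of beta-catenin activity, had 24.8 and 23.8 CPM at day 0, 10.9 and 7.69 CPM at day 3, 4.8 and 5.31 CPM at day 7 and 5.34 and 3.68 CPM at day 21. All later libraries lay below day 0, 4.75-fold lower at day 7 and 5.26-fold at day 21 (log2 change -2.40, SE 0.18, edgeR adjusted p = 1.04e-11). In the other set Axin2 had 1.77, 1.34 and 5.82 CPM in the Non-NE libraries, against 22.4, 24.4 and 10.7 CPM in the NE libraries, 6.45-fold lower without overlap (log2 change -2.69, SE 0.67, edgeR adjusted p = 0.0169). That call was lost without NE replicate 1, NE replicate 2 or Non-NE replicate 1, with adjusted p of 0.0532, 0.0551 and 0.0503. Nkd1, which binds Dishevelled and dampens the pathway, had 69.6 and 76.8 CPM at day 0, 37.4 and 36.7 CPM at day 3, 15.2 and 14.9 CPM at day 7 and 15.6 and 18.5 CPM at day 21. Days 7 and 21 lay below days 0 and 3 (4.22-fold lower than day 0, log2 change -2.08, SE 0.11, edgeR adjusted p = 3.41e-15). It had 0.642, 1.47 and 2.12 CPM in the Non-NE libraries, against 68.6, 70.8 and 23.9 CPM in the NE libraries, 38-fold lower (log2 change -5.25, SE 0.62, edgeR adjusted p = 0.000857). The ligase gene Znrf3 averaged 32.9 ± 6.97 CPM in Non-NE and 29.9 ± 4.86 CPM in NE (SD, n = 3 each; edgeR adjusted p = 0.758) and was 1.27-fold above day 0 at day 21 (adjusted p = 0.00649). Rnf43 had 1.81 and 1.65 CPM at day 21, against 0.094 and 0.093 CPM at day 0, 18.5-fold (95% counting interval 4.76 to 159) higher. It had 0.161, 4.88 and 4.02 CPM in the Non-NE libraries, against 0, 0.11 and 0 CPM in the NE libraries, with no test there.

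All 3 TCF/LEF factors tested were higher in Non-NE than in NE, where 20.0% of all genes tested were. Tcf7l2, near 0 in NE, entered that test through Non-NE, so its direction was fixed by the filter. At day 21, where 2 were tested, Tcf7l1 was called higher than day 0 and Tcf7 was not called. Of all genes tested 37.7% were higher at day 21. Tcf7l2 (chromosome 19, 55741820 to 55933654, plus strand), the factor that mediates most beta-catenin output in the gut, had 57.3, 29.4 and 30.9 CPM in the Non-NE libraries, against 0, 0 and 0.106 CPM in the NE libraries, with 1 NE count and a 1078-fold (95% counting interval 193 to 42610.0) higher level in Non-NE (edgeR adjusted p = 0.000153). In the 8 YAP5SA libraries it had a single count, at day 0, and 0 at days 3, 7 and 21. Tcf7, which encodes TCF1 and is best known from T cells, had 53.5, 49.9 and 30.5 CPM in the Non-NE libraries, against 1.54, 2.2 and 2.43 CPM in the NE libraries, 21.1-fold higher without overlap (log2 change 4.40, SE 0.36, edgeR adjusted p = 0.00019). It stayed under 3 CPM on every day, at 1.88 and 1.02 CPM at day 0, 2.25 and 1.85 CPM at day 3, 0.715 and 0.408 CPM at day 7 and 0.858 and 0.679 CPM at day 21. A fall at day 7 (log2 change -1.34, edgeR adjusted p = 0.0197) was lost without day 0 replicate 1 (0.264) or day 7 replicate 2 (0.165). Tcf7l1, a TCF that mainly represses its targets, had 24.6 and 28.6 CPM at day 0, 75 and 71.3 CPM at day 3, 102 and 83.2 CPM at day 7 and 41 and 47.3 CPM at day 21. It was highest at day 7 (3.5-fold over day 0, log2 change 1.81, SE 0.11, edgeR adjusted p = 9.69e-14), and at day 21 still 1.69-fold above day 0 (adjusted p = 2.17e-06, 0.261 in the fit of 13 libraries). In the other set it had 59.9, 38.7 and 97.4 CPM in the Non-NE libraries, against 29.5, 24.8 and 10.1 CPM in the NE libraries, 2.997-fold higher (log2 change 1.58, edgeR adjusted p = 0.0393). This Tcf7l1 call was lost without any 1 NE library (0.0539, 0.0805 and 0.0683), without Non-NE replicate 1 or 3 (0.0684 and 0.115) and by library totals alone (0.0671). Lef1 stayed under 1 CPM in every group mean.

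Wls, which carries Wnt proteins to the cell surface, averaged 437 ± 157 CPM in Non-NE and 48.9 ± 26.9 CPM in NE (SD, n = 3 each; log2 change 3.13, edgeR adjusted p = 0.00422). Over the days it stood at 70.8 and 64.8 CPM at day 0, 104 and 105 CPM at day 3, 227 and 241 CPM at day 7 and 334 and 289 CPM at day 21, 4.68-fold above day 0 at day 21 (adjusted p = 7.72e-18). The acyltransferase gene Porcn was 1.52-fold lower at day 21 than at day 0 (edgeR adjusted p = 0.000582). Of 13 genes of the destruction complex and beta-catenin, 1 was higher and 3 lower in Non-NE than in NE, and 6 were higher and 3 lower at day 21 than at day 0. Of all genes 20.0% were higher and 22.8% lower in Non-NE and 37.7% and 34.0% at day 21, so nothing is read from these counts or from those of the lists that follow. The steepest fall in both was that of Apc2, 6.33-fold in Non-NE and 2.61-fold at day 21, and Ctnnb1, which encodes beta-catenin, was 1.35-fold lower at day 21 (edgeR adjusted p = 9.64e-06).

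Of 16 tested Dishevelled and planar polarity genes 2 were higher and 5 lower in Non-NE, and 7 were higher and 5 lower at day 21 than at day 0. The cadherin gene Celsr3 averaged 0.200 ± 0.103 CPM in Non-NE and 127 ± 38.9 CPM in NE (SD, n = 3 each), and Celsr2 8.62 ± 7.14 CPM and 103 ± 17 CPM. At day 21 Prickle2 (6.63-fold lower) and Celsr3 (3.86-fold lower) fell most and Prickle1 and Celsr1 rose most. TCF cofactors were 2 higher and 2 lower of 12 in Non-NE and 2 higher and 6 lower of 11 at day 21, where the beta-catenin inhibitor gene Ctnnbip1 was 5.79-fold lower (edgeR adjusted p = 1.64e-16) and the coactivator gene Bcl9l 2.54-fold higher. Of 9 tested extracellular modulators 3 were higher and 0 lower in Non-NE, and 6 higher and 1 lower at day 21. The heparan sulfate proteoglycan Gpc4 averaged 143 ± 0.916 CPM at day 21 and 0.187 ± 0.0018 CPM at day 0 (SD, n = 2 each; log2 change 9.51, edgeR adjusted p = 1.50e-22), and the inhibitor Apcdd1 was 4.84-fold higher in Non-NE but 8.23-fold lower at day 21.

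Of 10 genes listed as frequent beta-catenin targets, 8 were tested over the days, and all 8 were higher at day 21 than at day 0, where 37.7% of all genes were higher. Of the 8, 5 were under 1 CPM at day 0 and entered the test because they were high later, so their direction was fixed by the filter. Many of the 8 are also induced by other pathways. The list does not hold Axin2 and Nkd1, feedback inhibitors that beta-catenin induces in many tissues. Both were called lower at day 21 than at day 0, while the feedback inhibitors Rnf43 and Znrf3 were called higher. The 8 therefore do not stand for all beta-catenin targets. The growth factor Bmp4 had 0 and 0.0929 CPM at day 0, 0.0978 and 0.0926 CPM at day 3, 11 and 10.7 CPM at day 7 and 122 and 102 CPM at day 21, and the hyaluronan receptor Cd44 had 42.5 and 22.6 CPM at day 21, against 0.282 and 0 CPM at day 0. Of 5 tested in the other set 4 were higher in Non-NE and 0 lower, against 20.0% and 22.8% of all genes. Cd44 and Bmp4 were under 1 CPM in NE and entered that test through Non-NE, with Cd44 at 402 ± 146 CPM in Non-NE and 0.177 ± 0.133 CPM in NE and Bmp4 at 89.5 ± 50.8 and 0.0321 ± 0.0556 CPM (SD, n = 3 each).

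The 2 changes were then set against each other, day 21 over day 0 and Non-NE over NE, in the fit of 13 libraries that leaves out NE replicate 2. Of 48 genes tested, 6 had a more positive change at day 21 (Fzd5, Rspo4, Wnt4, Nkd1, Wnt5a and Wnt3) and 3 a more negative one (Tcf7, Fzd6 and Tcf7l2), where 21.2% and 11.6% of all genes tested were called so (32.8% in all). Wnt4 had fitted changes of opposite sign: its log2 change was 1.62 at day 21 and -3.68 in Non-NE, a difference of 5.31 (SE 1.15, edgeR adjusted p = 0.00629). In this fit its day 21 change alone was not called (edgeR adjusted p = 0.152). Its Non-NE call in the separate fit was lost without any 1 NE library. Tcf7 moved by -0.90 at day 21 and 4.49 in Non-NE (difference -5.40, SE 0.62, edgeR adjusted p = 0.000126), and Fzd5 by 2.41 and -0.56 (difference 2.96, SE 0.51, adjusted p = 0.00168). In the separate fits the day 21 change of Tcf7 and the Non-NE change of Fzd5 were not called. Nkd1 fell in both and further in Non-NE. Rspo4 and Wnt3 had 0 counts in every Non-NE library, so their fitted differences are no measured size and no bound. The day 21 change of Wnt5a rests on 1 count at day 0. Its day 21 level (21.2 and 19.3 CPM) lay below that of the Non-NE libraries (49.9 to 75.5 CPM). For 39 genes the difference did not pass the test, which does not show that they moved alike. Among them Axin2 changed by -2.42 at day 21 and -2.43 in Non-NE (difference 0.01, SE 0.72). For Wnt7a and Wnt6, near 0 in the NE and Non-NE libraries, the standard error exceeded the difference. The count of more negative changes was 1 without day 0 replicate 2 or either day 21 library, 5 without Non-NE replicate 1 and 6 without Non-NE replicate 2.

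**Figure D5:**
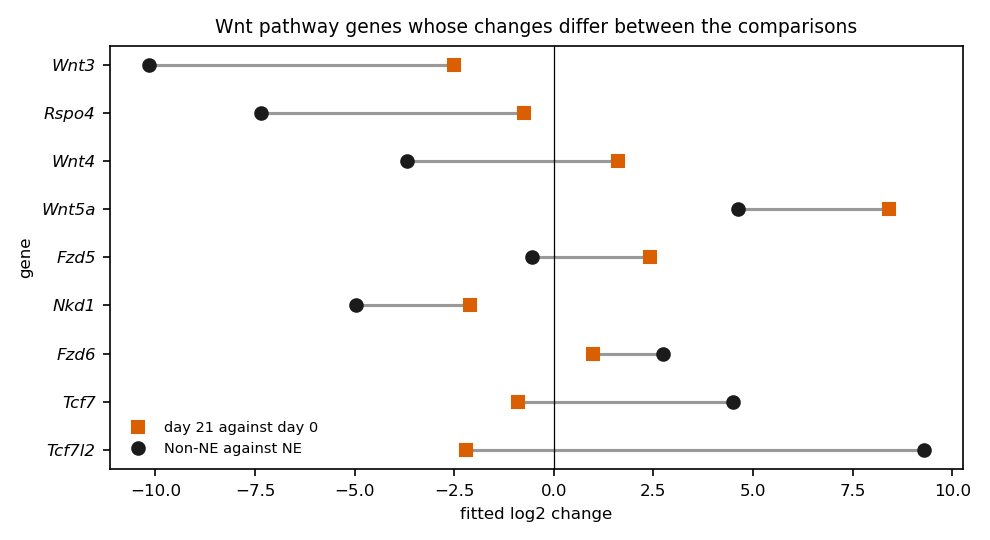
Squares give the fitted log2 change of day 21 against day 0 and circles that of Non-NE against NE, from the fit of 13 libraries, for the 9 genes whose 2 changes differed at an adjusted p under 0.05. Wnt4, Fzd5, Tcf7 and Tcf7l2 have their 2 marks on opposite sides of 0. The square of Wnt4 was not called in this fit, and in the separate fits neither the day 21 change of Tcf7 nor the Non-NE change of Fzd5 was. The square of Tcf7l2 rests on 1 count at day 0 and 0 at day 21, and that of Wnt5a on 1 count at day 0. The circles of Wnt3 and Rspo4 rest on 0 counts in Non-NE.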

How the data were processed

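Poly(A) RNA of 14 libraries was sequenced. The submitters' processing notes name STAR 2.4.2, featureCounts and the build mm10. Annotation and strand setting are not given in the sources used here. Values deposited by the authors are raw counts for 32926 symbols, and every column was used (0 unused per-sample columns). Members, gene lists and tests were chosen with earlier results of these data known.

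Libraries were grouped by the labels, whose genotype is not reported here in full. CPM are counts per megaread of TMM-scaled library size over the 14 libraries. Genes were filtered with filterByExpr and tested in edgeR 4.0.16 (R 4.3.3) by its quasi-likelihood test with robust estimation, with Benjamini-Hochberg adjustment over all genes tested and a call at 0.05. Non-NE was tested against NE in their 6 libraries (12966 genes), the days in their 8 (13996 genes), and the difference of changes in 13 libraries without NE replicate 2 (14820 genes). The scripts were checked on simulated data. Changes from 0 counts are given against a floor of 3 counts over the group, and those from 1 to 3 counts as a ratio with its 95% interval; both cover counting error only. Coordinates and exon lengths come from GENCODE M21 (mm10), where 57 of 57 symbols matched, and promoters from RefSeq. Values in every library are given for genes called and changed at least 2-fold in a comparison with a group mean of 5 CPM (27 genes). Of the other pathway lists at most 2 called genes with the largest rise and 2 with the largest fall are named per comparison. Ctnnb1, Yap1, Apcdd1, single cell type markers and members outside the 27 were named after their values were seen. The alternatives were DESeq2 1.42.0 size factors and test, library totals only, no count filter, the replicate number as a block, the fit of 13 libraries and leaving out each library.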

Additional observations from a re-analysis of the deposited data

Results flagged for a closer look

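For 9 genes the change from day 0 to day 21 differed from the change between NE and Non-NE by a test of the difference itself (edgeR, fit of 13 libraries), given here on the log2 scale. That fit has a coefficient of biological variation of 0.266, below the 0.399 of the Non-NE and NE libraries fitted alone. The difference was 2.96 for Fzd5, 6.59 for Rspo4, 5.31 for Wnt4, 2.86 for Nkd1, 3.78 for Wnt5a and 7.67 for Wnt3, all more positive at day 21. Rspo4 and Wnt3 had 0 counts in every Non-NE library, so their values depend on the fit and are no measured size and no bound. The value for Wnt5a rests on 1 count at day 0. The difference was -5.40 for Tcf7, -1.76 for Fzd6 and -11.50 for Tcf7l2. The value for Tcf7l2 rests on 1 count at day 0 and 0 at day 21, and its call was lost without day 0 replicate 2 (adjusted p = 1) or either day 21 library (0.0515 and 0.0528). The call for Fzd6 was lost without NE replicate 1, either day 0 library or either day 21 library (adjusted p 0.0573 to 0.0893), and that for Wnt5a without day 0 replicate 1 (0.0959). The Non-NE libraries also held 10680 to 22930 CPM of 10 fibroblast markers, against 46.7 to 51.7 CPM at day 21, and the part of this in the differences was not tested.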

How the results depend on the processing

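Direction was checked only for the 27 genes with values in every library, in comparisons where the main fit called them. None of these changes turned its direction under the alternatives run. In the fit of 13 libraries, which pools a biological coefficient of variation of 0.266, Non-NE against NE gave 24 members higher and 8527 of all genes called. In that fit the counts of members higher, members lower and all genes called were 5, 1 and 1296 at day 3 against day 0, 12, 5 and 5085 at day 21 against day 0, 9, 3 and 1698 at day 7 against day 3, and 4, 1 and 742 at day 21 against day 7. At day 7 against day 0 it gave 5 members lower and 5074 genes called. The DESeq2 test gave 7 members with a more negative difference of changes, against 3. 

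Leaving out each library in turn gave 3 to 7 members lower in Non-NE than in NE, the count being 3 without NE replicate 1 or without NE replicate 2, and 13 to 15 higher, with 4483 to 5570 of all genes called. For the difference of changes it gave 1 to 6 members more negative, 5 to 9 more positive and 3169 to 6102 of all genes called, fewest without day 0 replicate 2. For day 3 against day 0 it gave 12 to 13 higher, 7 to 11 lower and 5341 to 6372 of all, for day 7 against day 0 17 higher, 10 to 13 lower and 8910 to 9059, and for day 21 against day 0 20 to 21 higher, 9 to 10 lower and 9112 to 9777. Where a day was left with 1 library, that library was assumed to vary like the others of the fit.

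Library totals alone shifted the median log2 change of all genes to -0.275 for Non-NE against NE, -0.168 for day 7 and -0.121 for day 21 against day 0, -0.12 for day 7 against day 3 and 0.297 for the difference of changes. The share of higher calls over all genes then was 33.9% for Non-NE against NE, against 46.7%, 40.4% against 52.4% at day 7, 38.2% against 53% for day 7 against day 3 and 75% against 64.7% for the difference. The replicate numbers did not pair the libraries: correlations of same-numbered deviations were -0.016 to 0.044 for NE with Non-NE and -0.121 to 0.05 between days. With the replicate block 11 members were higher and 6 lower in Non-NE, and 20 higher and 9 lower at day 21 against day 0. Tcf7l1 (adjusted p = 0.1) and Lgr5 (0.137) lost their Non-NE calls under it. Depth leaves levels under about 0.1 CPM, 1 count in a library, uncertain.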
